A study of Rattus norvegicus with 39 samples.

Results

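Ribosome-bound mRNA of D1 and D2 medium spiny neurons (MSNs) was compared in the nucleus accumbens (NAc) of female Long Evans rats that had received repeated ketamine in proestrus. The rule took the 5 libraries whose labels name D1, proestrus and ketamine and the 4 that name D2, proestrus and ketamine, 9 of the 39 immunoprecipitation (IP) libraries of the series. The question is which transcripts are D1-biased or D2-biased under this treatment and stage. The rats were heterozygous for Drd1a-iCre or Drd2-iCre, and all of them carried AAV9-DIO-Rpl22-3xHA-Ires-EYFP, the RiboTag virus, injected into the NAc. Each received 6 intraperitoneal injections of 10 mg/kg ketamine, each given in proestrus, and was killed 4 to 5 days after the last, 30 min after it was put back into the test context. Females injected with saline on the same schedule in proestrus (5 D1 and 5 D2 libraries) and females given ketamine in diestrus (5 and 5) were used only to set the same contrast beside this one. A library is the NAc of 1 rat. Among ketamine-treated females, only rats whose locomotor response had grown over the injections were taken for IP, and the authors left out 1 more D2 library after a principal component analysis. The tag is expressed in any infected cell in which the Cre line is active, so an MSN name here stands for the Cre line and the IP, not for a sorted cell.

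MSNs are the projection neurons of the striatum and use GABA. D1-MSNs carry the dopamine D1 receptor, which stimulates adenylyl cyclase, and release dynorphin and substance P, whereas D2-MSNs carry the inhibitory D2 receptor together with an excitatory adenosine receptor and release enkephalin. Interneurons are a small fraction of accumbal neurons, and some classes of them also carry dopamine receptors. In RiboTag, a tagged ribosomal protein is switched on by Cre and polyribosomes are pulled down with an antibody against the HA tag, so a transcript is counted to the degree that it is abundant and bound to ribosomes.

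Total counts were 16118050 to 20494896 in the D1 libraries and 19928297 to 43224256 in the D2 libraries, with D2 library 22 the deepest. Libraries are named by the number that ends their label. No 2 of the 9 held identical counts. The first principal component carried 24.2% of the variance and set D2 library 6, at 38.2, apart from the other 8 libraries, at -26.8 to 9.06. Only 1515 of the 13339 genes tested (11.4%) are named by symbol, because the table that pairs them was held here only in part, its first rows in order of identifier. The named genes are thus those with low identifiers, and Drd1, Drd2, Pdyn, Penk and Tac1 are not analysed here by name. Levels are counts scaled to library size (CPM), and a fold change is given as log2 with its standard error (SE), positive for a D2 bias. Differential expression (DE) was tested in edgeR by quasi-likelihood and called where the Benjamini-Hochberg adjusted p was under 0.1.

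All 4 tested genes that mark GABAergic interneurons were D1-biased together, and the region around the annotated start of each is shown because they moved as a group. The windows run from 250 bases before to 50 bases after the start and come from RefSeq (GRCr8), read 5′ to 3′ on the strand of the gene. Of the tested genes with a symbol, 1290 of 1515 matched a window, and of the DE genes with a symbol 62 of 77 did. Adora2a was not among those matched. Capitals mark the cAMP response element TGACGTCA and the GC box GGGCGG.
Sst (ENSRNOG00000001837), which encodes somatostatin, chr11:90461296-90461595, plus strand: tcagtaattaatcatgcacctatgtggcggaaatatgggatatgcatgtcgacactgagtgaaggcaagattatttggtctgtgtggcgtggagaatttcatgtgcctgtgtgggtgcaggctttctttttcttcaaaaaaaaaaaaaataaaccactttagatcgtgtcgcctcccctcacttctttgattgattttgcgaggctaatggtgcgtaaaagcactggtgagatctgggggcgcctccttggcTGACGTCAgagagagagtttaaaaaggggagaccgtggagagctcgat
Nos1 (ENSRNOG00000001130), which encodes the neuronal nitric oxide synthase, chr12:44371788-44372087, minus strand: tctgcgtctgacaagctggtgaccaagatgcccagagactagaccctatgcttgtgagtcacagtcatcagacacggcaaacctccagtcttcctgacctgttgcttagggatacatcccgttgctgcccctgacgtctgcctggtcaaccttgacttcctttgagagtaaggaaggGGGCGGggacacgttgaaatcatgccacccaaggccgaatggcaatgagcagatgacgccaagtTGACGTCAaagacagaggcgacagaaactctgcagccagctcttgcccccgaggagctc
Chodl (ENSRNOG00000001915), which encodes chondrolectin, chr11:31140865-31141164, plus strand: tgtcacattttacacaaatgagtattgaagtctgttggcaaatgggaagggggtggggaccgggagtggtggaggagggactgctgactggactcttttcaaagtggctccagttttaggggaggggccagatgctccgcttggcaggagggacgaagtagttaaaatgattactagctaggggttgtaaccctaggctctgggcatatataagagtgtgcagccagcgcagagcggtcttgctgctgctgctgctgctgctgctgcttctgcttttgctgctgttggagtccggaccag
Kit (ENSRNOG00000002227), which encodes the receptor of stem cell factor, chr14:32978763-32979062, minus strand: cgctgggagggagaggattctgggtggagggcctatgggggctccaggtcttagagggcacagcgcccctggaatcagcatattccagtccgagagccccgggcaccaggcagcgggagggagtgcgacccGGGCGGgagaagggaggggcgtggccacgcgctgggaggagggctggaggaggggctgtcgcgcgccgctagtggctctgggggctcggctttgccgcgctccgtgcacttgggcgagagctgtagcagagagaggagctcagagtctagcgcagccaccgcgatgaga

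The cAMP response element TGACGTCA, the TATA box (TATAAA), the CCAAT box (CCAAT) and the GC box (GGGCGG) were searched on both strands. The first of these, which reads the same on both strands, began 9 bases before the annotated start of Nos1. In the Sst window it began at base 3 counted from the annotated start, and it was in neither the Chodl nor the Kit window. Whether transcription begins at the annotated starts was not tested, so these places hold only relative to them. It was present in 1.91% of the 27457 windows of this length, 1 per gene, and in 3.18% of those of tested genes with a symbol. Among the 34 D1-biased genes with a window 3 held it (8.82%), Sst, Nos1 and the immediate early gene Btg2, and among the 28 D2-biased genes 0 did. GGGCGG was in 34.9% of all windows, in 63.7% of those of tested genes with a symbol, and in 23 of the 34 D1-biased (67.6%) and 15 of the 28 D2-biased windows (53.6%). CCAAT was in 37.7% of all windows, in 37.9% of those of tested genes with a symbol, and in 8 of the D1-biased (23.5%) and 14 of the D2-biased ones (50.0%). TATAAA was in 14.3% and 6.43%, and in 3 of the D1-biased (8.82%) and 2 of the D2-biased windows (7.14%). These matches describe letters and do not show binding.

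Adora2a (ENSRNOG00000001302), the adenosine receptor by which D2-MSNs are told from D1-MSNs, and the only gene of the D2-MSN marker list that could be looked up, had the lowest adjusted p among the genes with a symbol. In library order, D1 libraries 2, 10, 18, 26 and 34 and D2 libraries 6, 22, 30 and 38, which is the order kept throughout, it was at 196, 183, 164, 163 and 147 CPM in the D1 libraries and 795, 967, 786 and 789 CPM in the D2 libraries. Every D2 library lay far above the highest D1 library. The group means were 171 ± 19.3 and 834 ± 88.3 CPM (SD, n = 5 and 4), a ratio of 4.89 (log2 fold change 2.28, SE 0.10, adjusted p = 4.2e-06). A 2-sided exact permutation test on log2(CPM + 1) gave p = 0.0159, the smallest that this test gives for 5 against 4 libraries. The D2 label was thus borne out in all 4 libraries by this gene, while no member of the D1-MSN marker list could be looked up and the D1 label was not checked by name. Of 14 markers common to both kinds of MSN 2 could be tested, and neither was DE. Rgs9, a striatal regulator of G-protein signalling, had a log2 fold change of 0.043 (SE 0.057, adjusted p = 0.817), and Adcy5, the main striatal adenylyl cyclase, one of 0.034 (SE 0.081, adjusted p = 0.917).

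**Figure D1:**
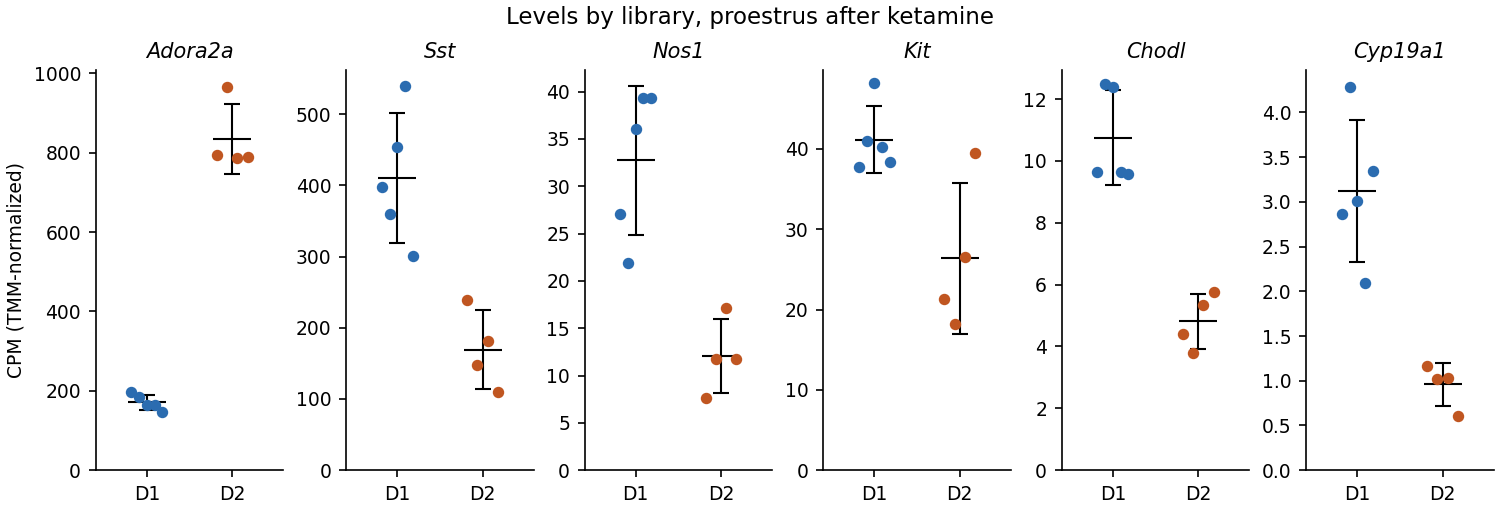
TMM-normalized CPM (linear axis from 0) of 6 genes in the 5 D1 and 4 D2 libraries of ketamine-treated proestrus females; points are libraries, and the bar and whiskers are the mean and SD. Adora2a was higher in every D2 library, the other 5 genes had lower D2 means, and Kit was the only one of the 6 whose groups overlapped, at 37.8 to 48.2 against 18.2 to 39.5 CPM.

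Across all genes, 748 of 13339 (5.61%) were DE, 320 D2-biased (2.4%) and 428 D1-biased (3.21%), and 1964 (14.7%) had an unadjusted p under 0.05. In the main fit, more of the large changes were D1-biased. Of the 131 DE genes whose log2 fold change exceeded 1 in size, 94 were D1-biased and 37 D2-biased, while 396 DE genes changed by less than 0.5. The median size of the change was 0.486 for D1-biased and 0.462 for D2-biased genes. The split of the large changes was not recounted in other settings. The D1 and D2 libraries did not overlap for 735 genes (5.51%), of which 456 were DE. The D1-biased gene with the lowest adjusted p, ENSRNOG00000023688, which has no symbol here, was at 589.9, 533, 580.1, 527 and 577 CPM in the D1 libraries and 50.2, 39.4, 42.9 and 41.7 CPM in the D2 libraries (log2 fold change -3.70, SE 0.071, adjusted p = 9.9e-12). Next came ENSRNOG00000012311, at 108 ± 4.84 and 13.4 ± 1.40 CPM. On the D2 side, ENSRNOG00000049580 and ENSRNOG00000014232 rose to 261 ± 37.4 and 196 ± 25.8 CPM, at log2 fold changes of 1.88 and 1.90. Among genes with a symbol, 77 were DE (5.08%), 33 D2-biased and 44 D1-biased, and 48 of the 77 did not overlap. Without D2 library 6 the count was 1098, of which 602 were D2-biased and 496 D1-biased, and 654 of the 748 genes were called again. Without D1 library 2 it was 480, of which 456 were among the 748. The direction with more DE genes therefore depended on the libraries.

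**Figure D2:**
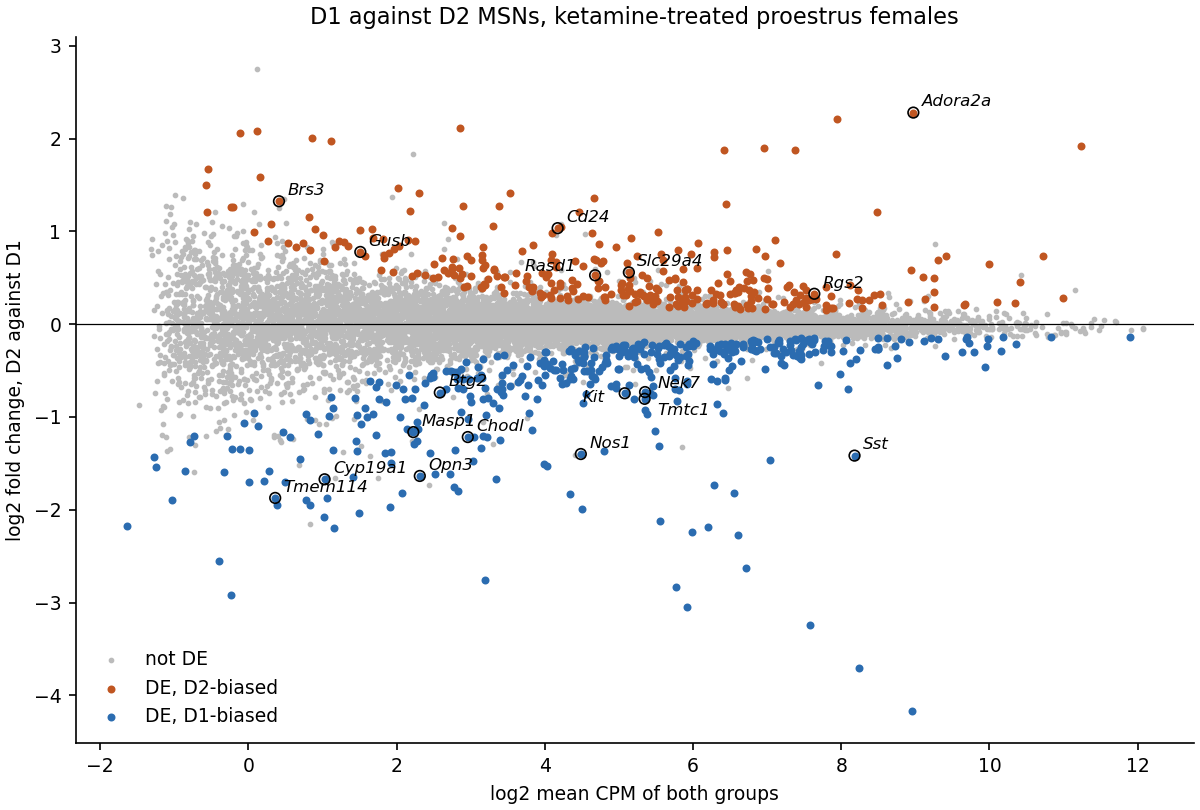
Log2 fold change of D2 against D1 (vertical axis) against the log2 mean CPM of both groups (horizontal axis) for the 13339 genes tested; grey points were not DE, orange points were D2-biased, blue points D1-biased, and circles mark 18 named genes. Large D1 biases are seen at both low and high levels, and Adora2a has the largest D2 bias among the circled genes.

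All 4 GABAergic interneuron markers that could be tested, of 12 in the list, were D1-biased, beside 3.21% of all genes. Their median log2 fold change was -1.31 beside -0.0017 over all genes. The list was chosen with earlier results of these data known, so these values describe it and do not test it. Sst was at 397, 359, 454, 540.0 and 300.4 CPM in the D1 libraries and 239, 148, 181 and 109 CPM in the D2 libraries (log2 fold change -1.42, SE 0.11, adjusted p = 0.000185). D2 library 6 was the highest of its group and still below the lowest D1 library. Nos1 was at 27.0, 21.9, 36.1, 39.3 and 39.3 CPM in the D1 libraries and 7.66, 11.7, 17.1 and 11.8 CPM in the D2 libraries (log2 fold change -1.40, SE 0.28, adjusted p = 0.0469). Chodl, which is found with Sst and Nos1 in a class of GABAergic neurons, was at 9.64, 12.5, 12.4, 9.65 and 9.59 CPM in the D1 libraries and 4.39, 3.79, 5.34 and 5.76 CPM in the D2 libraries (log2 fold change -1.22, SE 0.13, adjusted p = 0.000107). For both genes the groups did not overlap. The receptor gene Kit was at 37.8, 41.0, 48.2, 40.3 and 38.4 CPM in the D1 libraries and 21.3, 18.2, 26.6 and 39.5 CPM in the D2 libraries (log2 fold change -0.74, SE 0.12, adjusted p = 0.00724), and D2 library 38 lay within the D1 range. Sst and Chodl were called in 9 of 9 fits that left out 1 library each. Nos1 was not called without each of libraries 6 and 18 (adjusted p from 0.108 to 0.129), and Kit was not called without each of libraries 2, 10, 22 and 34 (adjusted p from 0.119 to 0.32) and in 4 of 11 other settings. Without library 22 the log2 fold change of Kit was -0.43. Summed, the 4 markers were at 388 to 629 CPM in D1 and 166 to 272 CPM in D2 libraries, and Sst made up most of the sum in every library. In bulk IP, fewer tagged cells of a type and less ribosome-bound mRNA per cell cannot be told apart. The share of RNA from untagged cells was not tested. No cholinergic interneuron marker could be looked up.

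Markers of non-neuronal cells were not DE, with 1 exception, which at their number is near the 5.61% of all genes. D2 library 6 had the highest sum of all 9 libraries for each of the 6 lists. The 6 astrocyte markers that could be looked up, of 10, summed to 129 to 146 CPM in D1 libraries, to 188 in library 6 and to 134 to 144 in the other D2 libraries. The oligodendrocyte marker looked up, Mog, which encodes a myelin glycoprotein, was at 5.05 to 8.40, 14.6 and 5.71 to 8.20 CPM, and the 2 endothelial and mural markers, of 11, summed to 3.00 to 5.10, 11.0 and 4.14 to 7.82 CPM. Microglia markers were low in all libraries, at 2.00 to 3.25 and 1.72 to 3.90 CPM over 4 genes of 10, of which 2 passed the filter. No tested marker of these lists was at 0 in every library. Among astrocyte genes, the connexin gene Gja1 had a log2 fold change of 0.21 (SE 0.13, adjusted p = 0.542), Gfap 0.11 (SE 0.10, adjusted p = 0.686), Sox9 0.064 (SE 0.18, adjusted p = 0.931), S100b -0.0038 (SE 0.081, adjusted p = 0.991), Fabp7 -0.051 (SE 0.19, adjusted p = 0.955) and the bicarbonate transporter gene Slc4a4 0.17 (SE 0.15, adjusted p = 0.703). The log2 fold change of Mog was 0.17, that of the precursor marker Pdgfra 0.14, the microglial Tmem119 and Aif1 -0.26 and -0.054, the endothelial Flt1 0.59 and the pericyte gene Rgs5 0.50, with adjusted p from 0.276 to 0.974. Of 4 fibroblast genes, Igfbp7, which encodes a secreted binding protein, was D1-biased (log2 fold change -0.33, SE 0.10, adjusted p = 0.0977) with overlapping groups, and was not called without each of libraries 2, 6, 18, 30, 34 and 38 (adjusted p from 0.11 to 0.342) and in 5 of 11 other settings. Without library 22 its log2 fold change was -0.53. Col1a1, Col3a1 and Fmod were at 0.27, 0.63 and 0.13, with adjusted p from 0.288 to 0.939. With 1 library left out, the log2 fold change was 0.28 to 0.73 for Flt1 and 0.29 to 0.73 for Col3a1. The part of such cells in the DE genes was not tested. The interneuron sum of each D1 library exceeded that of each D2 library, library 6 included.

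**Figure D3:**
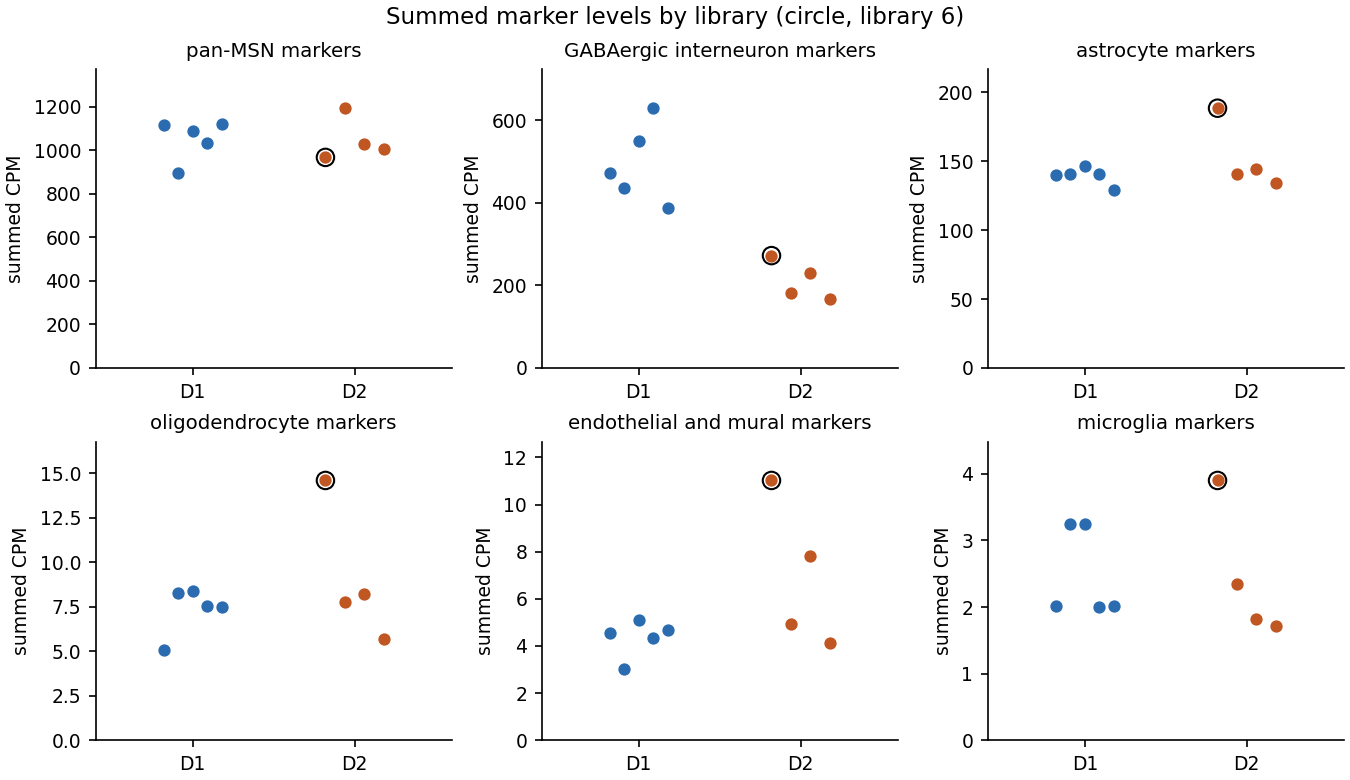
Summed CPM of 6 marker lists (vertical axes, linear from 0) in each library; blue points are D1 libraries, orange points D2 libraries, the circle is D2 library 6, and the oligodendrocyte list holds Mog alone. The interneuron sum, most of which is Sst, is higher in every D1 library than in every D2 library. Library 6 has the highest astrocyte, oligodendrocyte, endothelial and microglia sums.

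Among the named DE genes with a symbol, Tmem114, Cyp19a1 and Opn3 had a larger D1 bias than Sst. Cyp19a1 (ENSRNOG00000000196) encodes aromatase, which turns androgens into oestrogens, and was a low but D1-biased transcript at 2.86, 4.29, 3.01, 2.10 and 3.35 CPM in the D1 libraries and 1.17, 1.02, 1.03 and 0.606 CPM in the D2 libraries (log2 fold change -1.67, SE 0.28, adjusted p = 0.00393). Its groups did not overlap, and it was called in 9 of 9 fits that left out 1 library. In the list of steroid hormone receptors, where it is the only enzyme, the other gene tested was the orphan receptor Esrrg, at -0.21 (SE 0.13, adjusted p = 0.544). Opn3 (ENSRNOG00000003778), or encephalopsin, an opsin found outside the eye, was at 8.13, 7.72, 7.52, 8.62 and 5.00 CPM in the D1 libraries and 3.07, 2.37, 2.24 and 2.47 CPM in the D2 libraries (log2 fold change -1.64, SE 0.14, adjusted p = 1.8e-05), and the lowest D1 library, 34, was still above every D2 library. Tmem114, a membrane protein gene, was at 1.85, 1.35, 2.33, 2.53 and 2.01 CPM in the D1 libraries and 0.390, 0.465, 0.911 and 0.454 CPM in the D2 libraries (log2 fold change -1.87, SE 0.33, adjusted p = 0.00531).

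Other D1-biased genes named by the rule had varied roles. Masp1, a protease of the lectin complement pathway, fell from 6.27 ± 1.93 in D1 to 3.09 ± 0.730 CPM in D2 libraries (mean ± SD), a log2 fold change of -1.16 (SE 0.15, adjusted p = 0.000614). The secreted glycoprotein gene Fstl1 fell from 46.3 ± 9.28 in D1 to 35.8 ± 8.21 CPM in D2 libraries (mean ± SD), a change of -0.47 (SE 0.063, adjusted p = 0.000741), with overlapping groups, and was not called in 3 of 11 settings that kept all libraries (adjusted p from 0.295 to 0.487). Tmtc1, an O-mannosyltransferase of the endoplasmic reticulum, was at 47.6 to 57.3 CPM in D1 and 23.2 to 39.6 CPM in D2 libraries (log2 fold change -0.80, SE 0.11, adjusted p = 0.00142). Nek7, a kinase of the NIMA family, was at 44.1 to 61.3 and 29.0 to 34.2 CPM (log2 fold change -0.73, SE 0.068, adjusted p = 3.3e-05). Pcdh19, a protocadherin, was at 17.3 to 21.8 and 12.3 to 13.7 CPM (log2 fold change -0.55, SE 0.087, adjusted p = 0.00233). Of 12 genes tested for axon guidance and adhesion it alone was DE, which is near the 5.61% of all genes. None of Tmtc1, Nek7 and Pcdh19 overlapped between groups. Pde9a, the phosphodiesterase that breaks down cGMP, was also lower in every D2 library, at 30.4 ± 2.55 against 20.6 ± 2.87 CPM (log2 fold change -0.59, SE 0.10, adjusted p = 0.00326). Smaller D1 biases were found for Itm2a, at a log2 fold change of -0.50, for Rasal1, a Ras GTPase-activating protein, at -0.43, for Rnf112, a ubiquitin ligase of the brain, at -0.30, and for Pcp4, a calmodulin-binding peptide, at -0.27, with adjusted p from 0.00402 to 0.00636. Of these 4, only Pcp4 overlapped, and it was not called in 4 of 11 settings that kept all libraries (adjusted p from 0.114 to 0.236).

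Of 7 genes tested in the list of dopamine receptors and their signalling, 3 were D2-biased, beside 2.4% of all genes, and 0 D1-biased, and the list median was 0.043. Rasd1, a Ras-like G protein induced by glucocorticoids, was at 23.1, 20.4, 17.3, 20.8 and 23.1 CPM in the D1 libraries and 31.6, 27.4, 31.5 and 30.5 CPM in the D2 libraries (log2 fold change 0.53, SE 0.10, adjusted p = 0.00621). Rgs2, which shortens signalling by Gq, was at 186, 165, 188, 174 and 178 CPM in the D1 libraries and 199.6, 258, 212 and 209 CPM in the D2 libraries (log2 fold change 0.33, SE 0.062, adjusted p = 0.00899). For Rasd1 and Rgs2 every D2 library exceeded every D1 library, and Rgs2 was not called without library 10 (adjusted p = 0.103) and in 1 of 11 other settings. Rgs8, another regulator of G-protein signalling, was at 169, 155, 173, 169 and 173 CPM in the D1 libraries and 161, 225, 208 and 209 CPM in the D2 libraries (log2 fold change 0.28, SE 0.068, adjusted p = 0.0413), with D2 library 6 inside the D1 range, and it was not called without library 30 (adjusted p = 0.105) and in 2 of 11 other settings. The other 4 genes of the list, Rgs9 and Adcy5 among them, did not pass the test. Slc29a4, the plasma membrane monoamine transporter, was at 27.4, 30.1, 28.4, 25.9 and 29.5 CPM in the D1 libraries and 34.2, 36.8, 46.5 and 50.3 CPM in the D2 libraries (log2 fold change 0.56, SE 0.065, adjusted p = 0.000208), without overlap, and the rise was larger in D2 libraries 30 and 38 than in 6 and 22. Brs3, an orphan receptor of the bombesin family, was at 0.617, 0.613, 1.16, 0.682 and 0.825 CPM in the D1 libraries and 2.00, 2.28, 1.53 and 1.72 CPM in the D2 libraries (log2 fold change 1.32, SE 0.27, adjusted p = 0.0129), without overlap. It was a transcript of low abundance.

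Other D2-biased genes were Cd24, a glycoprotein of the cell surface, at 11.1, 14.6, 9.95, 10.6 and 15.3 CPM in the D1 libraries and 21.9, 34.6, 20.7 and 17.8 CPM in the D2 libraries (log2 fold change 1.03, SE 0.17, adjusted p = 0.00803), and Gusb, the lysosomal beta-glucuronidase, at 1.68 to 2.78 CPM in D1 and 3.26 to 3.90 CPM in D2 libraries (log2 fold change 0.78, SE 0.19, adjusted p = 0.0439). Neither overlapped. Cd24 was not called without library 34 (adjusted p = 0.129) and in 2 of 11 other settings, and without library 22 its log2 fold change was 0.66. Gusb was not called without each of libraries 2, 18, 30 and 38 (adjusted p from 0.107 to 0.119) and in 2 of 11 other settings. Map3k20, a kinase of the stress response to stalled ribosomes, was at 18.2 to 26.5 and 27.3 to 33.2 CPM (log2 fold change 0.46, SE 0.11, adjusted p = 0.0325), and was not called without library 10 (adjusted p = 0.104) and in 1 of 11 other settings. Itpr2, an inositol trisphosphate receptor that releases calcium from the endoplasmic reticulum, was at 3.83 to 4.92 and 5.30 to 7.00 CPM (log2 fold change 0.53, SE 0.14, adjusted p = 0.0595), and was not called without each of libraries 2, 10, 18 and 22 (adjusted p from 0.125 to 0.13) and in 2 of 11 other settings. Clk4, a kinase of splicing factors, was at 16.2 to 22.1 and 23.2 to 26.2 CPM (log2 fold change 0.44, SE 0.080, adjusted p = 0.0066). Cdk2ap1, a cell cycle regulator, was at 13.1 to 17.1 and 19.1 to 23.8 CPM (log2 fold change 0.42, SE 0.079, adjusted p = 0.00798). These 4 did not overlap. RGD1304622 was at 2.92, 2.51, 2.67, 3.22 and 3.82 CPM in the D1 libraries and 9.22, 7.00, 3.93 and 3.38 CPM in the D2 libraries (log2 fold change 0.91, SE 0.17, adjusted p = 0.00636), and the groups overlapped, with D2 library 38 inside the D1 range and library 30 just above it. It was not called without each of libraries 2, 10 and 22 (adjusted p from 0.112 to 0.337) and in 4 of 11 other settings, and without library 22 its log2 fold change was 0.48. Cbr3, a carbonyl reductase, had a log2 fold change of 0.41, the phosphoinositide phosphatase gene Fig4 0.32, Fam222a 0.33, Slx9, named for a role in ribosome assembly, 0.31, the ubiquitin-binding Ankrd13a 0.28, and Mprip, a binding partner of myosin phosphatase, 0.21, with adjusted p from 0.00352 to 0.0252. Of these 6, Cbr3 and Mprip overlapped, and Mprip was not called without each of libraries 10, 22 and 38 (adjusted p from 0.111 to 0.175) and in 5 of 11 other settings. With blocks of 8 consecutive library numbers in place of the surrogate variables, Clk4, Fig4, Fam222a and Ankrd13a were not called (adjusted p from 0.108 to 0.138). Cbr3 was not called in 1 model of all 39 libraries (adjusted p = 0.474).

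**Figure D4:**
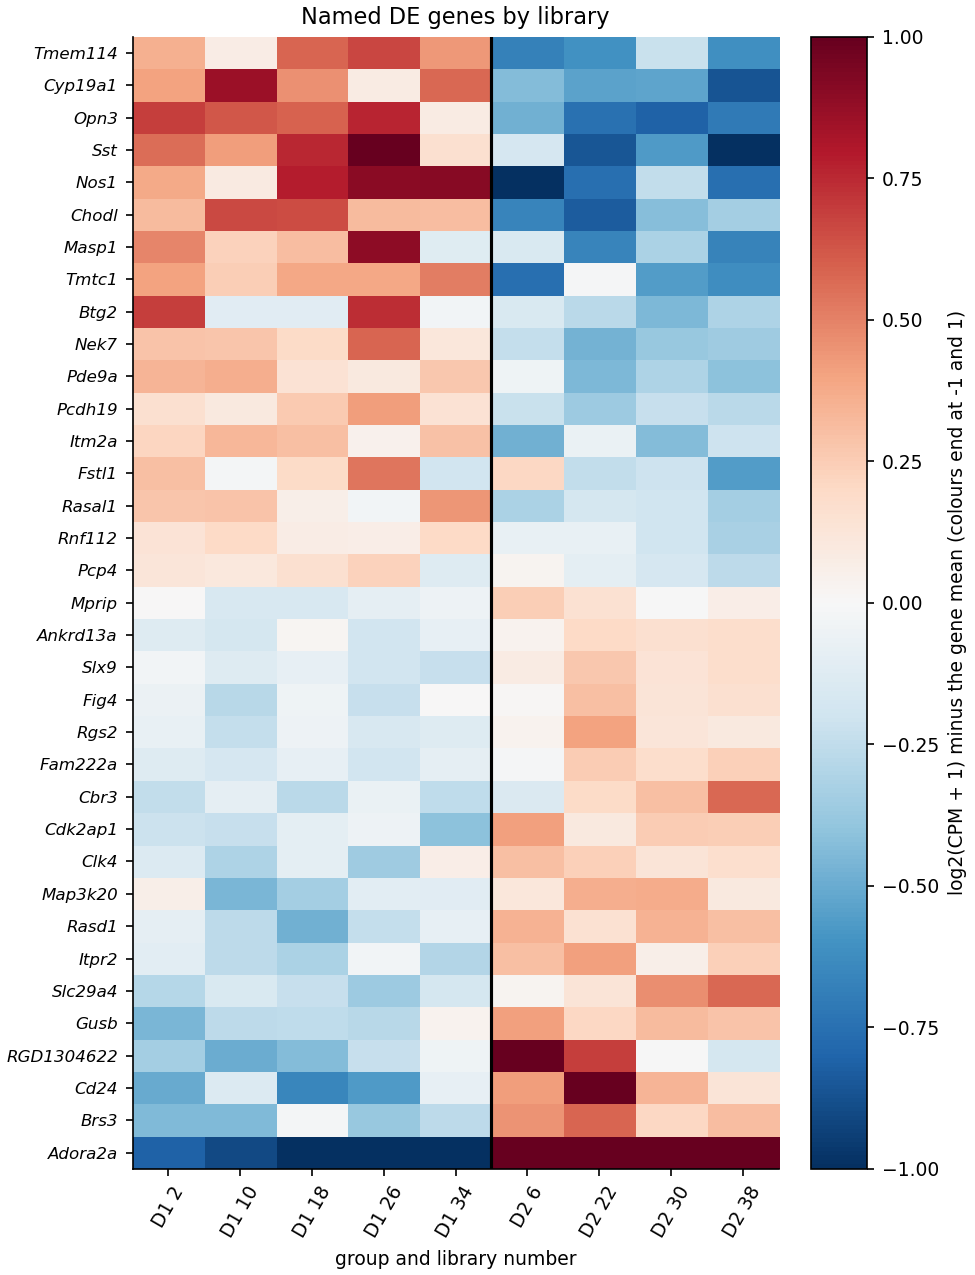
Log2(CPM + 1) minus the mean of the gene (colour; scale from -1 to 1) for the named DE genes with the lowest adjusted p or the largest changes (rows, sorted by log2 fold change) in each of the 9 libraries (columns; the line parts D1 from D2). D1-biased genes are mostly red on the left and blue on the right, with exceptions such as Btg2 and Fstl1, and library 6 is paler than the other D2 libraries for Pde9a, Masp1 and Sst.

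Receptors and channels with a symbol held few DE genes, as did all genes tested, of which 5.61% were DE. Among 6 glutamate receptor genes and auxiliary subunits only Grik2, a kainate receptor subunit, was DE and D1-biased, at 89.9, 84.4, 85.7, 81.8 and 97.5 CPM in the D1 libraries and 65.7, 76.0, 72.2 and 79.3 CPM in the D2 libraries (log2 fold change -0.23, SE 0.048, adjusted p = 0.0172), with no overlap. Grik1 had a log2 fold change of -0.31 (SE 0.12, adjusted p = 0.227), the NMDA receptor subunit gene Grin2c 0.24 (SE 0.10, adjusted p = 0.276) and the metabotropic receptor gene Grm4 -0.12 (SE 0.069, adjusted p = 0.502). With 1 library left out, Grik1 was at -0.38 to -0.12 and Grin2c at 0.14 to 0.27. Of 8 genes tested for GABA synthesis and receptors 0 were DE, and their median was -0.026. Gad1, which makes GABA, was at 1133 ± 23.1 and 1111 ± 90.5 CPM, and the receptor genes Gabra2, Gabra4, Gabrb1, Gabrb2, Gabrg1 and Gabbr1 had log2 fold changes from -0.26 to 0.16, with adjusted p of at least 0.184. Of 3 other adenosine and serotonin receptor genes, Adora1, the inhibitory adenosine A1 receptor, was at 112 ± 13.2 and 126 ± 12.1 CPM (log2 fold change 0.16, SE 0.075, adjusted p = 0.35), so that of these receptors only Adora2a was DE. The serotonin receptors Htr1f and Htr5b were at 0.42 and 0.26, and the peptide receptors Sstr2, Npffr1 and Glp1r at 0.054, -0.35 and 0.19, none of them DE. The neuropeptide genes Vgf and Nmu had -0.14 (SE 0.087, adjusted p = 0.543) and -0.27 (SE 0.33, adjusted p = 0.805), beside the D1-biased Sst. Kcnk2, a background potassium channel, was the only DE gene of 5 potassium channels, at 157 ± 14.2 and 190.1 ± 27.1 CPM (log2 fold change 0.31, SE 0.085, adjusted p = 0.0892), with overlapping groups, and was not called without each of libraries 2, 10, 18, 22, 26, 30, 34 and 38 (adjusted p from 0.103 to 0.289) and in 7 of 11 other settings. Without library 22 its log2 fold change was 0.18.

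The remaining lists held 0 or 1 DE gene each, which at their size is near the 5.61% of all genes. The synaptic vesicle and SNARE list (10 genes tested) and the oxidative phosphorylation list (10) held 0 DE genes, with medians of 0.018 and 0.007, as did the 4 striatal transcription factors, with a median of -0.30, and the 1 endocannabinoid gene. Of 14 collagen, laminin and integrin genes, Nid1, the basement membrane protein nidogen, was D2-biased (log2 fold change 0.44, SE 0.11, adjusted p = 0.0341), with overlapping groups, and was not called without library 30 (adjusted p = 0.128) and in 4 of 11 other settings. The list median was 0.22. Of 6 immediate early genes 1 was DE, Btg2, which was D1-biased, at 10.1, 5.33, 5.34, 10.4 and 5.72 CPM in the D1 libraries and 5.17, 4.68, 4.02 and 4.54 CPM in the D2 libraries (log2 fold change -0.74, SE 0.20, adjusted p = 0.0667). D1 libraries 2 and 26 were the highest, the other 3 lay just above the D2 libraries, and Btg2 was not called without each of libraries 2, 6, 26, 30, 34 and 38 (adjusted p from 0.127 to 0.204) and in 4 of 11 other settings. The other members of the list went both ways, with log2 fold changes of -0.62 (SE 0.18, adjusted p = 0.123) for the neuronal pentraxin gene Nptx2, 0.58 (SE 0.26, adjusted p = 0.377) for the transcription factor gene Egr2, 0.10 (SE 0.18, adjusted p = 0.89) for the kinase gene Sik1 and -0.075 (SE 0.41, adjusted p = 0.971) for Ier3, which like Ptgs2 were named after their values were seen. Nptx2 and Egr2 each passed the test in 2 of 20 alternative settings. With 1 library left out, the log2 fold change of Egr2 was 0.15 to 0.85. Ptgs2, the inducible cyclooxygenase, was at 7.41 to 11.9 CPM in the D1 libraries and 11.9 to 19.1 CPM in the D2 libraries (log2 fold change 0.67, SE 0.20, adjusted p = 0.122). D2 library 6 lay just inside the D1 range, and Ptgs2 did not pass the test here but passed it in 14 of 20 alternative settings, 7 of 9 fits with 1 library left out among them, always D2-biased.

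The same contrast in saline-treated proestrus females gave 718 DE genes of 13283 (5.41%), 372 D2-biased (2.8%) and 346 D1-biased (2.6%), and in ketamine-treated diestrus females 1705 of 13358 (12.8%), 823 (6.16%) and 882 (6.6%). Without surrogate variables the counts were 447 in ketamine-treated proestrus, 971 in saline-treated proestrus and 611 in ketamine-treated diestrus females, so the order of the 3 counts depended on this choice, and so may the shares that follow. None of these libraries was shared with the 9 described. Among genes tested in both proestrus fits, 374 were DE in both, 50.5% of those DE after ketamine and 52.3% of those DE after saline, all 374 in the same direction. With ketamine-treated diestrus females, 536 were shared, 72.1% of those DE in proestrus and 31.6% of those DE in diestrus, again all in the same direction. Of all genes DE in ketamine-treated proestrus females, 97.2% had the same sign in saline-treated proestrus females, beside 67.4% of all genes tested in both, and 97.2% in ketamine-treated diestrus females, beside 67.7%. Being DE in one contrast and not in another does not show a difference between them, so the interaction was tested.

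Cell type interacted with treatment in proestrus for 0 of 13774 genes (0.0%) in edgeR, with 411 (2.98%) at an unadjusted p under 0.05, and for 0 in DESeq2 with or without surrogate variables. With cycle stage after ketamine it interacted for 0 of 13850 genes (0.0%), with 530 (3.83%) at an unadjusted p under 0.05, for 0 in DESeq2 without surrogate variables and for 2 in DESeq2 with 2, ENSRNOG00000017508 and ENSRNOG00000017329, neither with a symbol. Without D2 library 6 edgeR called 7, among them the collagen gene Col5a2 (interaction -1.47 on the log2 scale) and Rgs8 (0.30), both at adjusted p = 0.0821. Several biases held in all 3 contrasts. Adora2a had log2 fold changes of 2.23 (SE 0.087, adjusted p = 4.3e-08) in saline-treated proestrus females and 2.12 (SE 0.081, adjusted p = 1.9e-08) in ketamine-treated diestrus females, Sst of -1.35 (SE 0.22, adjusted p = 0.021) in saline-treated proestrus females and -1.58 (SE 0.28, adjusted p = 0.0211) in ketamine-treated diestrus females, and Nos1 of -1.27 (SE 0.24, adjusted p = 0.0218) in saline-treated proestrus females and -2.23 (SE 0.22, adjusted p = 0.00047) in ketamine-treated diestrus females. Chodl had -1.03 (SE 0.21, adjusted p = 0.0179) in saline-treated proestrus females and -1.43 (SE 0.17, adjusted p = 7.3e-05) in ketamine-treated diestrus females. Kit, also an interneuron marker, had -0.48 (SE 0.20, adjusted p = 0.281) in saline-treated proestrus females and -0.79 (SE 0.14, adjusted p = 0.00572) in ketamine-treated diestrus females, and was thus not DE after saline. Cyp19a1 had -0.97 (SE 0.32, adjusted p = 0.143) in saline-treated proestrus females and -1.88 (SE 0.26, adjusted p = 0.000277) in ketamine-treated diestrus females, and Opn3 -1.01 (SE 0.33, adjusted p = 0.142) in saline-treated proestrus females and -1.35 (SE 0.16, adjusted p = 6.9e-05) in ketamine-treated diestrus females, so that both were DE under ketamine at each stage and not in saline-treated proestrus females, but unadjusted p for the interaction with treatment of 0.194 and 0.169 did not separate ketamine from saline.

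The 5 genes with a symbol and the lowest interaction p are given for each interaction, and none passed adjustment. The 9 libraries enter both interactions. For treatment these were Jmjd6, Clk4, Alox5ap, Mrpl55 and Polr1h, at unadjusted p from 0.000555 to 0.0114 and an adjusted p of 0.998 each. Clk4 was at 18.8 ± 2.34 CPM in D1 and 24.5 ± 1.35 CPM in D2 libraries after ketamine, and at 23.4 ± 1.82 and 25.1 ± 2.87 CPM after saline (SD). The D1 level after ketamine was thus the lowest of the 4 means. Jmjd6, a nuclear oxygenase, was at 19.8 and 23.8 CPM after ketamine and 23.9 and 22.5 CPM after saline, and was D2-biased after ketamine (log2 fold change 0.28, SE 0.076, adjusted p = 0.072), a call that was lost without each of libraries 2, 10, 22, 26, 30, 34 and 38 (adjusted p from 0.109 to 0.173) and in 4 of 11 other settings. The interaction was 0.44 (SE 0.11) for Jmjd6, 0.43 (SE 0.11) for Clk4, 1.56 (SE 0.52) for Alox5ap, 0.32 (SE 0.11) for the mitochondrial ribosomal gene Mrpl55 and 0.45 (SE 0.16) for the polymerase gene Polr1h. Alox5ap, needed for leukotriene synthesis, was below 1 CPM in all 4 groups on average.

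For cycle stage they were Col5a2, Rasd1, Nrip1, Nrbf2 and Tdp1, at unadjusted p from 0.000429 to 0.0044 and adjusted p from 0.776 to 1.00. Rasd1 was D2-biased in proestrus, and in diestrus after ketamine the groups were at 20.6 ± 2.85 and 20.4 ± 2.36 CPM (SD, n = 5 each; log2 fold change -0.0012). Its interaction was 0.56 (SE 0.14), and in saline-treated proestrus females it was D2-biased as well (0.36, adjusted p = 0.0413). Col5a2, a fibrillar collagen gene, was at 2.74 ± 0.567 and 4.25 ± 2.48 CPM in proestrus after ketamine and at 1.80 ± 0.269 and 6.20 ± 1.66 CPM in diestrus, an interaction of -1.07 (SE 0.26). Nrip1, a corepressor of nuclear receptors, had 0.35 (SE 0.10), the autophagy gene Nrbf2 0.49 (SE 0.15) and the DNA repair gene Tdp1 -0.56 (SE 0.18). Btg2 was D1-biased in ketamine-treated proestrus females alone of the 3 contrasts, with 0.094 (SE 0.23, adjusted p = 0.876) in saline-treated proestrus females and 0.012 (SE 0.16, adjusted p = 0.978) in ketamine-treated diestrus females, and unadjusted interaction p of 0.0264 and 0.0486 that did not pass adjustment.

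**Figure D5:**
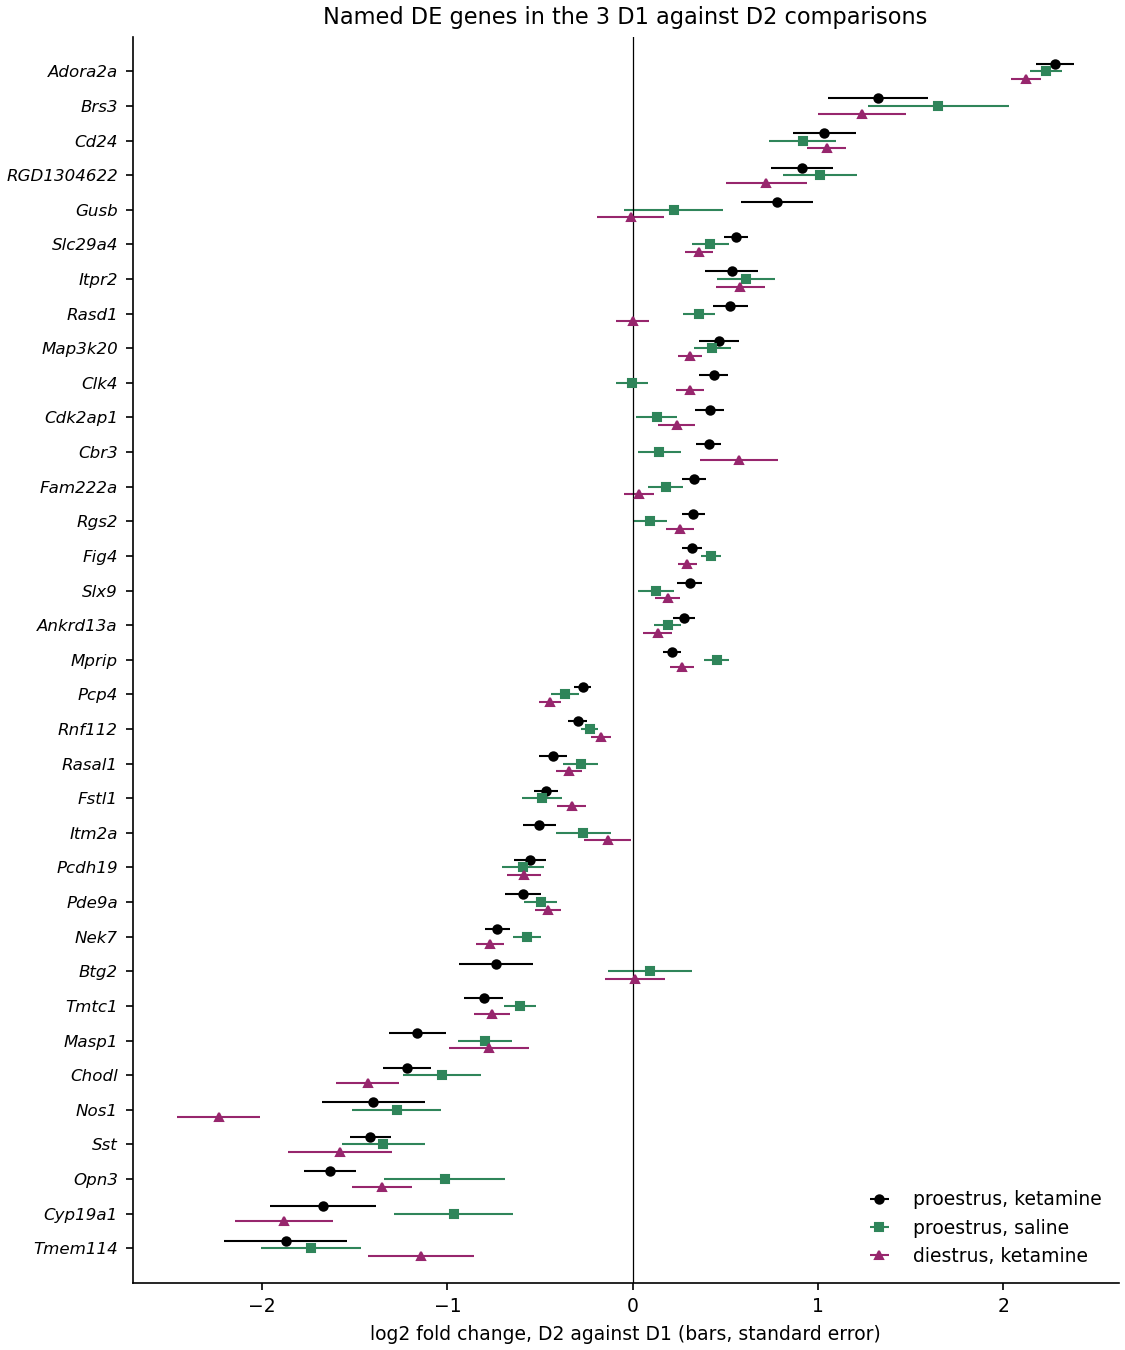
Log2 fold change of D2 against D1 (horizontal axis; bars are the standard error) for most of the named DE genes (rows) in ketamine-treated proestrus (black circles), saline-treated proestrus (green squares) and ketamine-treated diestrus females (purple triangles). Most genes lie on the same side of 0 in all 3, while Btg2 is near 0 in both other contrasts, Gusb and Rasd1 in diestrus and Clk4 after saline.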

How the data were processed

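Ribosome-bound mRNA from the NAc of 39 female rats was sequenced (stranded libraries from IP RNA, 1 per rat). The authors trimmed reads with fastp 0.23.4, checked them with FastQC 0.12.1, quantified them with Salmon 1.10.2 against mRatBN7.2 and summed transcripts per gene. The deposited values are expected counts, summed per gene by the authors, whole numbers and not normalized, for 23978 identifiers. The members and gene lists were chosen with earlier results of these data known. Symbols for 1966 identifiers came from the study's supplementary tables, which were held in part, in order of identifier, and of which only identifiers and symbols were used. Fold changes and p-values that the authors list were not used. Some list members are not reported here and were left out of their lists.

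Genes were filtered by group with filterByExpr of edgeR 4.0.16 (minimum count 10), TMM-normalized and tested in R 4.3.3 by edgeR's quasi-likelihood test with robust dispersions, 2 surrogate variables (sva 3.50.0) and Benjamini-Hochberg adjustment at 0.1. The SE is the log2 fold change divided by the root of the F statistic. Interactions were fitted over the 4 groups concerned. CPM were TMM-normalized over all 39 libraries. Genes were named by rule: list receptors, ligands, markers and up to 6 DE members per direction, the 15 lowest adjusted p and the 10 largest non-overlapping changes per direction, the 5 lowest interaction p, and 2 unnamed identifiers per direction. Alternatives were 0, 1 or the num.sv number of surrogate variables, DESeq2 1.42.0 with and without them, its size factors and 2 other filters. Others were a threshold of 0.05, all 39 libraries in a model, blocks of 8 library numbers with no surrogate variable, and each library left out. The steps were tested on simulated counts. Counts carry sampling error. The p-values and SE of the main fits measure the spread between rats that is left after the 2 surrogate variables are fitted, not the whole spread.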

Additional observations from a re-analysis of the deposited data

Results flagged for a closer look

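In 13 of 190 groups of 4 or 5 libraries tested, 1 per named gene and cell type, a single library stood apart from the others of its group by Dixon's test, and chance marks about 1 group in 20. Values are log2(CPM + 1). Among genes described above as DE, Adora2a was at 9.92 in D2 library 22 and at 9.62 to 9.64 in the other D2 libraries, so the deepest library was also the highest for the D2 marker. Opn3 was at 2.59 in D1 library 34 and at 3.09 to 3.27 in the other D1 libraries, and Tmem114 was at 0.93 in D2 library 30 and at 0.48 to 0.55 in the other D2 libraries. Igfbp7 was at 4.40 in D1 library 34 and at 4.63 to 4.66 in the other D1 libraries, and Rgs8 was at 7.28 in D1 library 10 and at 7.41 to 7.45 in the other D1 libraries. ENSRNOG00000049580 was at 8.31 in D2 library 22 and at 7.90 to 7.94 in the other D2 libraries, where library 22 again was the highest. Among genes that were not DE, Gja1 was at 5.29 in D2 library 6 and at 4.49 to 4.59 in the other D2 libraries, the library with the highest sums of non-neuronal markers. Mog was at 2.60 in D1 library 2 and at 3.08 to 3.23 in the other D1 libraries, Pdgfra was at 2.40 in D1 library 26 and at 2.56 to 2.62 in the other D1 libraries, and Fmod was at 1.51 in D1 library 26 and at 0.69 to 0.91 in the other D1 libraries. Nmu was at 1.01 in D1 library 2 and at 0.60 to 0.69 in the other D1 libraries, Grm4 was at 6.64 in D1 library 2 and at 6.48 to 6.52 in the other D1 libraries, and Ier3 was at 0.69 in D1 library 2 and at 1.11 to 1.18 in the other D1 libraries. The library marked most often was D1 library 2, in 4 groups. Whether depth or the share of other cells had a part in these values was not tested.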

How the results depend on the processing

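The count of DE genes was 748 with 2 surrogate variables, 447 with no surrogate variable and 1313 with the number of surrogate variables that num.sv gave. It was 394 with library number blocks, a fit that also held no surrogate variable and so is to be set beside the 447. With 1 library left out it was 480 to 1098, lowest without D1 library 2 and highest without D2 library 6. D2-biased genes outnumbered D1-biased ones without libraries 6, 26, 34 or 38, with the num.sv number and with at least 10 counts in every library. With no surrogate variable the count was 611 in ketamine-treated diestrus and 971 in saline-treated proestrus females. The interaction with cycle stage gave 2 genes in DESeq2 with 2 surrogate variables and 0 to 7 with 1 library left out, and that with treatment 0 in every setting. The difference of Adora2a in log2(CPM + 1) was 2.21 to 2.34 with 1 library left out. Over 93 named genes, 1654 of 1858 alternative fits kept the direction and the side of the threshold. The 46 DE genes among them kept their direction in all 919 of their fits, 111 of which missed the threshold, and 24 passed in every setting. The log2 fold change of some genes that were not DE changed sign. In 1 model of all 39 libraries, it was -0.0084 for Rgs9, -0.089 for Adcy5, 0.071 for S100b, -0.072 for Slc4a4, -0.063 for Gabra2, 0.14 for Ier3 and 0.051 for Esrrg. In DESeq2 without surrogate variables, it was -0.026 for Adcy5, 0.080 for S100b, 0.056 for Fabp7, 0.011 for Aif1, -0.0098 for Gabra2 and 0.13 for Ier3. With library number blocks, it was -0.10 for Adcy5, 0.090 for S100b, 0.019 for Fabp7, -0.074 for Slc4a4, 0.053 for Tmem119, -0.052 for Gabra2, 0.036 for Ier3, -0.076 for Sik1 and -0.011 for Nrip1. With no surrogate variable, it was -0.024 for Adcy5, 0.081 for S100b, 0.059 for Fabp7, 0.012 for Aif1, -0.0078 for Gabra2 and 0.12 for Ier3. With no filter, it was -0.030 for Mog, -0.0042 for Sstr2, 0.065 for Ier3 and 0.028 for Esrrg. With 1 surrogate variable, it was 0.11 for Ier3. With 1 library left out, the range was -0.021 to 0.071 for Rgs9, -0.069 to 0.16 for Adcy5, -0.10 to 0.059 for S100b, -0.19 to 0.022 for Fabp7, -0.052 to 0.37 for Slc4a4, -0.057 to 0.25 for Mog, -0.40 to 0.075 for Aif1, -0.0049 to 0.28 for Col1a1, -0.072 to 0.49 for Fmod, -0.036 to 0.11 for Sstr2, -0.0060 to 0.47 for Htr5b, -0.10 to 0.027 for Gad1, -0.039 to 0.11 for Gabra2, -0.49 to 0.52 for Ier3, -0.022 to 0.35 for Sik1, -0.28 to 0.20 for Esrrg and -0.013 to 0.10 for Nrip1. The cause was not tested. The labels pair no D1 with a D2 library and the groups share no library number, so the main fit was not paired. Each block of 8 consecutive numbers holds at most 1 D1 and 1 D2 of the 9 libraries, but the labels do not call these pairs. Depth limits low transcripts such as Brs3, Cyp19a1 and Tmem114, and 4 D2 libraries limit every SE. Identifiers without a symbol here, most of those tested, could not be assigned to a list.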
